A study of Mus musculus with 4 samples.

Results

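Endothelial cells line blood and lymphatic vessels, and a list of 35 genes known for expression in them was followed through 4 mouse tumors. A gene was taken if a probe set of the array carried its symbol alone, and the probe set of highest mean signal stood for it. This gave 33 of the 35 genes, among 12393 genes named in that way. Mmrn2 and Ecscr had no such probe set. The 33 genes were measured by 47 probe sets.

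The tumors grew subcutaneously in nude (NCR Nu/Nu) mice after injection of iBMK cells, an immortalized line from the kidney epithelium of baby mice. The cells of 2 tumors were ATG5-/-, expressed Bcl-2 and expressed p62-EGFP, the autophagy adaptor p62 fused to a green fluorescent protein. The cells of the other 2 tumors were ATG5-/-, expressed Bcl-2 and expressed EGFP alone. The implanted cells of all 4 tumors therefore lacked the autophagy gene Atg5 and carried Bcl-2, and the tumors had no treatment. That genotype is given for the implanted cells and not for the host. The labels give neither the age of the mice nor whether 2 tumors of a kind had separate hosts or cultures, so p-values measure only the spread between these tumors. Host and implanted cells were both mouse, and the array does not tell their transcripts apart. In whole tumors, fewer endothelial cells and less RNA per cell cannot be told apart either.

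Vessels of an implanted tumor are built largely by endothelial cells of the host. These cells respond to ligands of the vascular endothelial growth factor (VEGF) family, whose receptors are encoded by Kdr, Flt1 and Flt4. The borders of endothelial cells are held by VE-cadherin and claudin-5, the products of Cdh5 and Cldn5. The angiopoietin receptor Tie2, encoded by Tek, takes part in the maturation of vessels, and transcription factors of the ETS, SOX and KLF families set endothelial identity.

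Each tumor was hybridized to 1 array, and values are MAS5 signals on a linear scale in arbitrary units, scaled between arrays by the authors. The median signal of an array lay between 57.7 and 60.95. Differences are of log2(signal + 16), p62-EGFP minus EGFP, which understates the change of dim genes. Signals of different probe sets are not comparable as levels. The test took probe sets with a mean at or above the 40th percentile, a signal of about 32.7, and 20 of the 33 endothelial genes passed this filter. Most of the 33 had a mean signal below the median of the arrays. As a check of the labels, Sqstm1, the gene of p62, read 1433 and 1688 in the p62-EGFP tumors and 975.8 and 1156 in the EGFP tumors on its 1 probe set (log2 difference 0.54, SE 0.14, limma adjusted p = 0.235); the groups were apart, and whether that probe set detects the introduced p62-EGFP is not given. Sqstm1 lies on chromosome 11, where 59.1% of the genes above the filter read higher in both p62-EGFP tumors, so the chromosome and the introduced gene cannot be told apart in this check. EGFP tumor 2 stood apart by its leukocyte transcripts and p62-EGFP tumor 1 by its skeletal muscle transcripts, and results are given with and without each of them.

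Most endothelial genes read lower in the p62-EGFP tumors than in the EGFP tumors. For 19 of the 33 genes each p62-EGFP tumor read below each EGFP tumor, against 18.0% of all genes on the array. Each p62-EGFP tumor read above each EGFP tumor for 3 of the 33, against 26.8% of all genes. The median difference was -0.48 on the log2 scale over the 33 genes and 0.03 over all genes. The lower genes were led by Cldn5, Ets1, Aqp1, Icam2 and Kdr, whereas Flt1, Tek, Erg, Prox1, Tal1 and Lyve1 had differences above 0. No endothelial gene passed the test across all probe sets (limma, Benjamini-Hochberg adjusted p under 0.05), a threshold met by 0.0510% of the 7846 genes and 0.0884% of the 13576 probe sets tested. At an unadjusted limma p under 0.05, 8 of the 20 tested endothelial genes were lower and 0 were higher. The shares among all tested genes were 6.30% and 8.50%. Of these 8, Cldn5, Cdh5, Kdr and Ptprb had p62-EGFP means below the filter and passed it through the EGFP tumors, so the count is a description and no support for a difference of the list. With 2 tumors against 2, the smallest p that an exact two-sided permutation test of 1 value allows is 0.333.

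**Figure D1:**
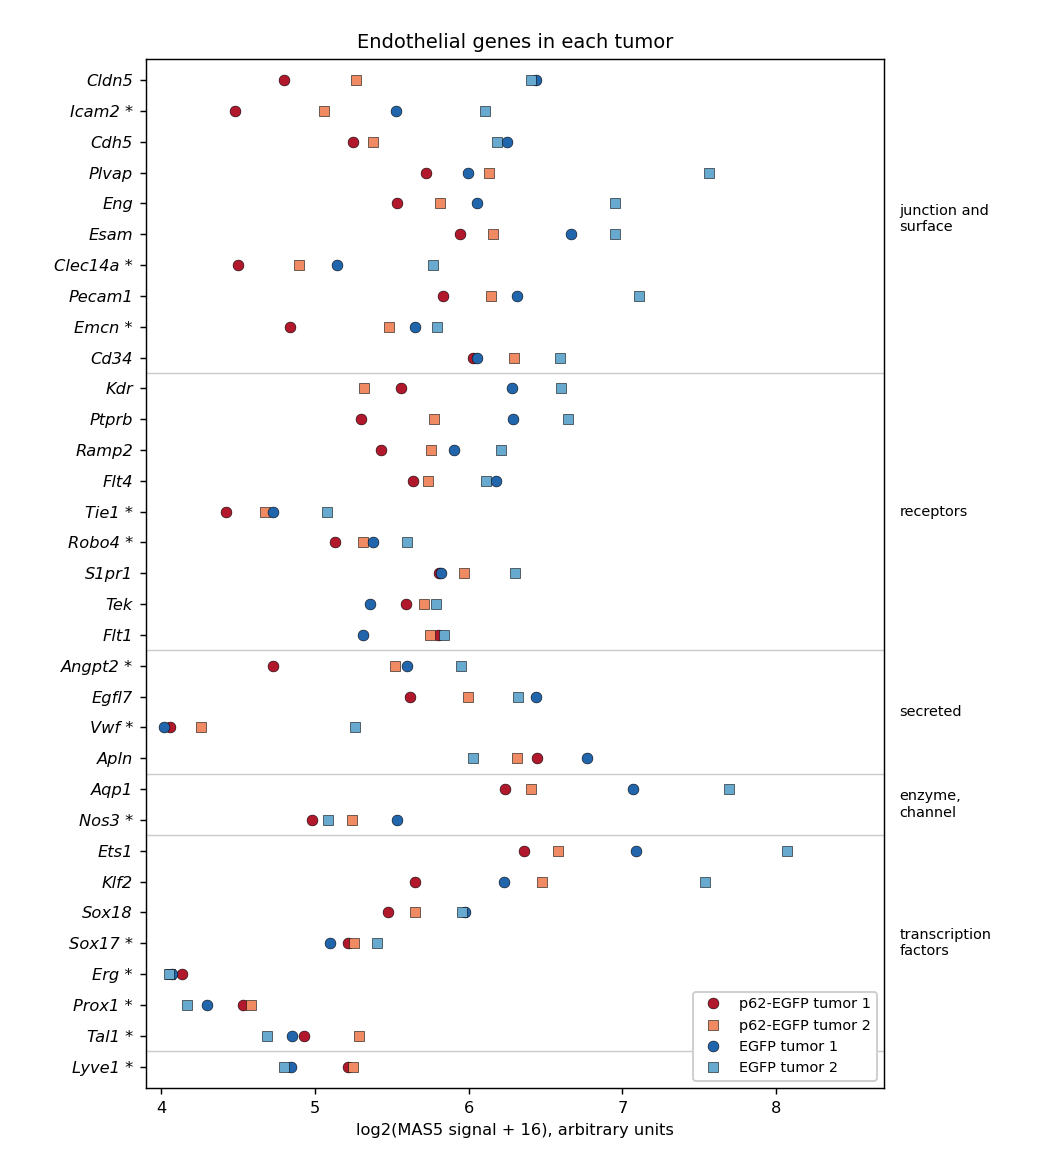
Log2(signal + 16) of 33 endothelial genes (rows, grouped by role) in each of the 4 tumors, with 1 point per tumor; an asterisk marks a gene below the filter, which was not tested. Both p62-EGFP tumors lie left of both EGFP tumors for 19 of the 33 genes, and right of both for Prox1, Tal1 and Lyve1.

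The filter touches these counts. Of the 20 genes above it, 13 were lower in both p62-EGFP tumors (22.1% among all genes above the filter) and 0 were higher in both (26.4%). Of the 13 genes below it, 6 were lower in both (11.0% among all genes below the filter) and 3 were higher in both (27.5%). A gene can pass the filter through the group in which it reads high, so the count over all 33 is given first.

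The 3 defining markers all read lower in the p62-EGFP tumors. Cldn5, the tight junction protein claudin-5, read 11.8 and 22.5 in p62-EGFP tumors 1 and 2, against 70.8 and 68.8 in EGFP tumors 1 and 2. The p62-EGFP tumors stood far below the EGFP tumors, which were close to each other. The log2 difference of Cldn5 was -1.39 (SE 0.24, limma adjusted p = 0.184), at percentile 0.742 of all genes on the array. Cdh5, or VE-cadherin, read 22 and 25.6 in the p62-EGFP tumors and 60.2 and 56.7 in the EGFP tumors (log2 difference -0.90, SE 0.19, limma adjusted p = 0.209). Its groups were also apart and tight. Kdr, the main signalling receptor for VEGF, read 31.1 and 24 in the p62-EGFP tumors and 61.9 and 81.2 in the EGFP tumors. Its log2 difference was -1.003 (SE 0.22, limma adjusted p = 0.214), and the EGFP tumors lay apart from the p62-EGFP tumors.

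The sequence before the transcription start is shown for Cldn5 and Kdr, which read lower in the p62-EGFP tumors, and for Flt1, the VEGF receptor gene that did not. Capitals mark GGAA and its reverse complement TTCC, the core letters of ETS family binding motifs. Each line gives the 250 bases before the start, from RefSeq on build GRCm38.p6, 5′ to 3′ on the strand of the gene.
Cldn5, chr16:18776597-18776846, plus strand: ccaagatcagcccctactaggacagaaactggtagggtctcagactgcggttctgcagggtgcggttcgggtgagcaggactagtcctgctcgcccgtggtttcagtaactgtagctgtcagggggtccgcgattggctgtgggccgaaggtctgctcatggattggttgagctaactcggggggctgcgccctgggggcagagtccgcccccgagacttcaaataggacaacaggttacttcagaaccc
Kdr, chr5:75978456-75978705, minus strand: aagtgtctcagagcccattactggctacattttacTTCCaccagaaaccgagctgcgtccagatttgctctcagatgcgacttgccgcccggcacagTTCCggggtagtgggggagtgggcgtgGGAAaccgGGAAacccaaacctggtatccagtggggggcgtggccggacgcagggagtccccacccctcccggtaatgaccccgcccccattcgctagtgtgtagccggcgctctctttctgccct
Flt1, chr5:147726012-147726261, minus strand: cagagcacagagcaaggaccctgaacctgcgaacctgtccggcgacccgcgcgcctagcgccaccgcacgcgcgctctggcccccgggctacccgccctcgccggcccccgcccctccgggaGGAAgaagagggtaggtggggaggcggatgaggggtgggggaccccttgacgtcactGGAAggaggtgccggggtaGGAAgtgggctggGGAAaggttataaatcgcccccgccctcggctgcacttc

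The windows of Kdr and Flt1 each held 4 such matches, and that of Cldn5 held 0. GGAA or TTCC was present in 93.5% of all 32851 promoter windows of this length, with a median of 3 per window. The RefSeq table held windows for 18 of the 35 genes, 24 windows in all, and 22 of the 24 contained GGAA or TTCC. The longer letters CAGGAAG, which contain the core, were in 7 of the 24 windows and in 10.8% of all windows. They were in none of the 3 windows shown. GGGTGG, letters bound by KLF factors, was in 9 of the 24 windows against 28.1% of all, ACAAT, found in SOX motifs, in 6 against 27.7%, and AGATAA, letters bound by factors of the GATA family, in 2 against 9.99%. All were searched on both strands. Repeated windows of a gene were dropped from the 24 but not from all windows. The 7 windows with CAGGAAG came from 6 genes. Shares of the 24 and of all windows are therefore not counted alike. These matches describe the letters only.

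Among junction and surface proteins, 8 of 10 read lower in both p62-EGFP tumors, against 18.0% of all genes. All 10 differences were below 0, with a median of -0.79 on the log2 scale. Esam, an adhesion molecule of endothelial tight junctions, read 45.5 and 55.3 in the p62-EGFP tumors and 85.3 and 107.7 in the EGFP tumors (log2 difference -0.76, SE 0.20, limma adjusted p = 0.240). Pecam1, the adhesion molecule CD31 that platelets and leukocytes also carry, read 41.1 and 54.9 in the p62-EGFP tumors and 63.7 and 121.8 in the EGFP tumors. Eng, or endoglin, a co-receptor for ligands of the TGF-beta family, read 30.4 and 40.3 in the p62-EGFP tumors and 50.5 and 107.6 in the EGFP tumors. For Esam, Pecam1 and Eng the groups did not overlap, and EGFP tumor 2 was the highest of the 4. The log2 differences of Pecam1 and Eng were -0.72 (SE 0.31) and -0.83 (SE 0.34), with limma adjusted p = 0.364 and 0.350.

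Plvap, which forms the diaphragms of fenestrae and caveolae, read 36.7 and 54 in the p62-EGFP tumors and 47.8 and 173.1 in the EGFP tumors. Its groups overlapped and EGFP tumor 2 carried the difference (log2 difference -0.85, SE 0.52, limma adjusted p = 0.488). Cd34, a sialomucin shared with progenitor cells and fibroblasts, read 49.4 and 62.5 in the p62-EGFP tumors and 50.5 and 80.6 in the EGFP tumors. It too overlapped between the groups (log2 difference -0.16, SE 0.25, limma adjusted p = 0.787).

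The 3 surface genes below the filter followed the markers. Icam2, an adhesion molecule of resting endothelium that leukocytes also express, read 6.3 and 17.3 in the p62-EGFP tumors and 30.2 and 52.9 in the EGFP tumors (log2 difference -1.05, not tested). Clec14a, a C-type lectin of vessels, read 6.6 and 13.8 in the p62-EGFP tumors and 19.3 and 38.5 in the EGFP tumors. Emcn, the sialoglycoprotein endomucin of capillaries and veins, read 12.6 and 28.8 in the p62-EGFP tumors and 34.2 and 39.5 in the EGFP tumors. In all 3, p62-EGFP tumor 1 was the lowest of the 4 tumors.

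The receptors divided. Among 9, 6 read lower in both p62-EGFP tumors (18.0% of all genes) and 3 overlapped, with a median log2 difference of -0.35. Ptprb, the phosphatase VE-PTP that acts on Tie2 and VE-cadherin, read 23.4 and 38.7 in the p62-EGFP tumors and 62.3 and 84.2 in the EGFP tumors (log2 difference -0.93, SE 0.26, limma adjusted p = 0.244). Flt4, a VEGF receptor known best from lymphatic vessels, read 33.8 and 37.2 in the p62-EGFP tumors and 56.5 and 53.1 in the EGFP tumors (log2 difference -0.46, SE 0.19, limma adjusted p = 0.350). Ramp2, which makes the calcitonin-like receptor respond to adrenomedullin, read 27.1 and 38.1 in the p62-EGFP tumors and 43.8 and 58.1 in the EGFP tumors (log2 difference -0.46, SE 0.23, limma adjusted p = 0.412). Flt4 and Ramp2 lie on chromosome 11, as do Pecam1 and Icam2, and the 1041 genes of that chromosome had a median log2 difference of 0.21. These 4 genes thus read lower on a chromosome whose genes read higher as a whole. Below the filter, the orphan receptor gene Tie1 read 5.4 and 9.6 in the p62-EGFP tumors and 10.5 and 17.8 in the EGFP tumors. Robo4, an endothelial Roundabout receptor, read 19.1 and 23.8 in the p62-EGFP tumors and 25.5 and 32.5 in the EGFP tumors. Both were apart by small steps at low signal.

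For the receptors Flt1, Tek and S1pr1 the groups overlapped. Flt1, which binds VEGF and limits its action on Kdr, read 39.7 and 37.8 in the p62-EGFP tumors and 23.8 and 41.4 in the EGFP tumors (log2 difference 0.20, SE 0.25, limma adjusted p = 0.735). Tek read 32.2 and 36.4 in the p62-EGFP tumors and 25.1 and 39.2 in the EGFP tumors (log2 difference 0.08, SE 0.24, limma adjusted p = 0.894). For both, EGFP tumor 1 was the lowest and EGFP tumor 2 the highest, with the p62-EGFP tumors between them, and without EGFP tumor 1 both differences were below 0 (-0.07 for Flt1 and -0.14 for Tek). S1pr1, the sphingosine 1-phosphate receptor of endothelium and lymphocytes, read 40.1 and 46.6 in the p62-EGFP tumors and 40.5 and 63 in the EGFP tumors (log2 difference -0.17, SE 0.24, limma adjusted p = 0.756). Without EGFP tumor 2 its difference was 0.07.

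**Figure D2:**
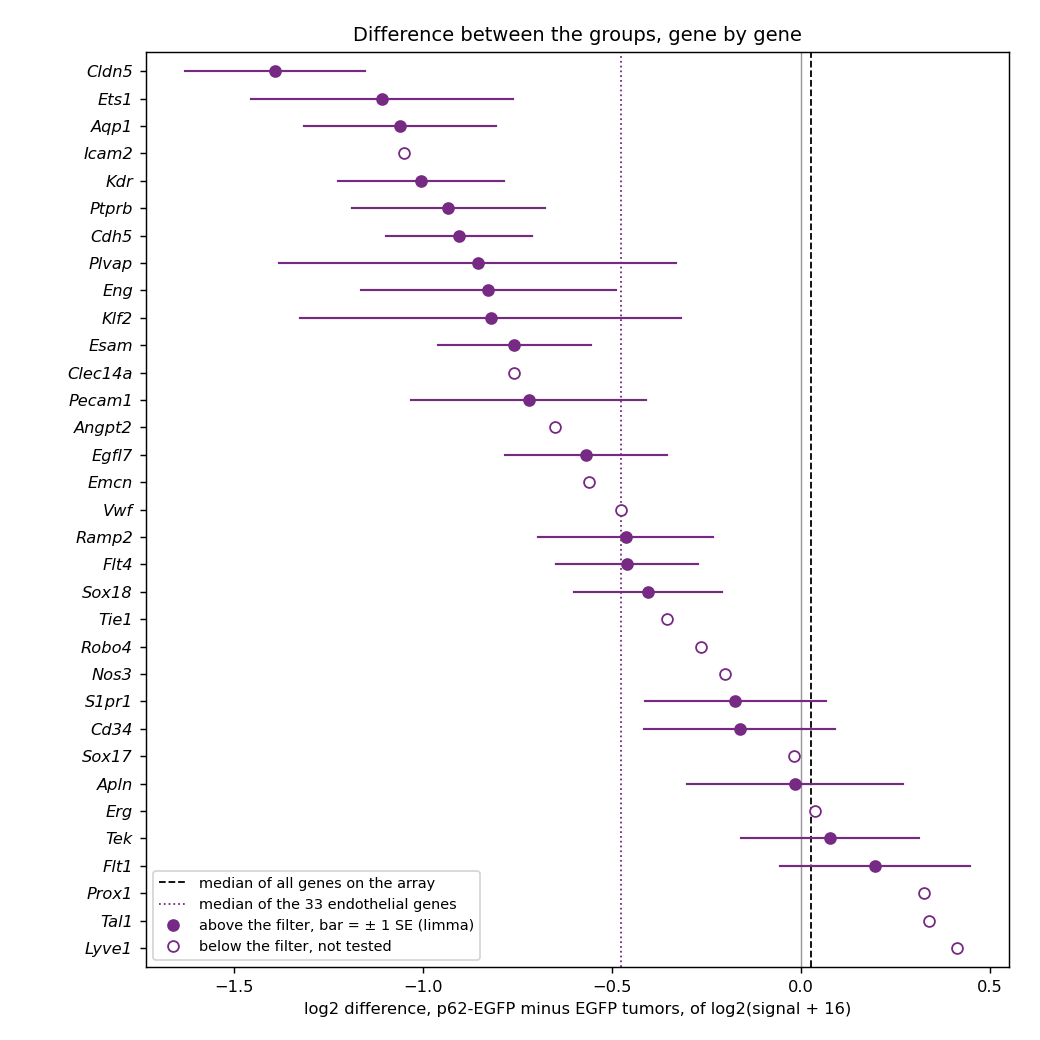
Log2 difference, p62-EGFP minus EGFP tumors, of 33 endothelial genes in order of size, with ± 1 SE from limma for the 20 genes above the filter. The dotted line marks the median of the 33 genes, -0.48, and the dashed line the median of all genes on the array, 0.03; Cldn5 has the lowest value, -1.39.

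Secreted factors and the enzyme and channel genes were mixed. Egfl7, a matrix-bound factor made by endothelial cells, read 33.2 and 47.8 in the p62-EGFP tumors and 70.5 and 63.8 in the EGFP tumors (log2 difference -0.57, SE 0.21, limma adjusted p = 0.330). Apln, the apelin peptide gene of sprouting tip cells, read 71.2 and 63.7 in the p62-EGFP tumors and 92.9 and 49.2 in the EGFP tumors. The p62-EGFP tumors lay between the EGFP tumors (log2 difference -0.02, SE 0.29, limma adjusted p = 0.986), and its sign turned with the array scaling, to 0.03 with quantile normalization and 0.02 with median centring. Angpt2, an angiopoietin released by activated endothelium, was below the filter and read 10.5 and 29.9 in the p62-EGFP tumors and 32.5 and 45.8 in the EGFP tumors. Vwf, the clotting protein von Willebrand factor, read 0.7 and 3.2 in the p62-EGFP tumors and 0.2 and 22.3 in the EGFP tumors, near the bottom of the scale in 3 of the 4. Aqp1, a water channel of capillaries that kidney tubule and red cells also express, read 59.5 and 68.6 in the p62-EGFP tumors and 118.4 and 190.5 in the EGFP tumors. Its log2 difference was -1.06 (SE 0.25, limma adjusted p = 0.221), and the groups were apart. Nos3, the endothelial nitric oxide synthase, read 15.6 and 21.8 in the p62-EGFP tumors and 30.4 and 18 in the EGFP tumors, and overlapped.

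The transcription factors read in both directions. Among 7, 2 read lower in both p62-EGFP tumors (18.0% of all genes), 2 read higher (26.8%) and 3 overlapped, numbers too small to set apart from those shares. Ets1, an ETS factor of endothelium and of lymphocytes, read 66.3 and 79.8 in the p62-EGFP tumors and 120.2 and 253.1 in the EGFP tumors (log2 difference -1.11, SE 0.35, limma adjusted p = 0.274). Sox18, a SOX factor of vessels, read 28.4 and 34.3 in the p62-EGFP tumors and 46.9 and 46.1 in the EGFP tumors (log2 difference -0.40, SE 0.20, limma adjusted p = 0.404). Both were apart; for Ets1, EGFP tumor 2 stood far above EGFP tumor 1, while for Sox18 the EGFP tumors were close to each other. Klf2, a factor induced by blood flow, read 34.2 and 73.1 in the p62-EGFP tumors and 59 and 169.9 in the EGFP tumors, which overlapped (log2 difference -0.82, SE 0.50, limma adjusted p = 0.488). Sox17, of arterial endothelium, read 21.1 and 22.1 in the p62-EGFP tumors and 18.3 and 26.3 in the EGFP tumors. Erg, an ETS factor of mature endothelium, did not exceed 1.6 in any tumor; its log2 difference of 0.04 stands at the bottom of the scale and was kept in the counts and the median. Tal1, a factor of blood and endothelial progenitors, read 14.5 and 23.1 in the p62-EGFP tumors and 12.9 and 9.8 in the EGFP tumors.

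Genes known from lymphatic vessels read in both directions. Prox1, the factor that sets lymphatic identity, read 7.2 and 8 in the p62-EGFP tumors and 3.7 and 2 in the EGFP tumors. Lyve1, a hyaluronan receptor of lymphatic endothelium and some macrophages, read 21.2 and 22 in the p62-EGFP tumors and 12.7 and 11.8 in the EGFP tumors. Both were higher in both p62-EGFP tumors, against 27.5% of all genes below the filter, and neither was bright enough to be tested. Flt4, above, read lower in both.

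More than 1 probe set measured 9 of the genes. All 4 probe sets of Egfl7 and all 4 of Ets1 read lower in both p62-EGFP tumors, with log2 differences between -0.57 and -0.10 for Egfl7 and between -1.11 and -0.70 for Ets1. For Cdh5, Flt4, Eng and Clec14a only the brightest probe set separated the groups. The dim probe set of Cdh5 read 6.7 and 10.8 in the p62-EGFP tumors and 8.5 and 9.9 in the EGFP tumors. Both probe sets of Lyve1 read higher in the p62-EGFP tumors. The probe sets of Flt1 disagreed: one read 43.4 and 42.7 in the p62-EGFP tumors and 26.3 and 25.3 in the EGFP tumors, a log2 difference of 0.50 with the groups apart, and the other 2 overlapped. Which Flt1 transcripts each probe set detects was not analysed here.

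**Figure D3:**
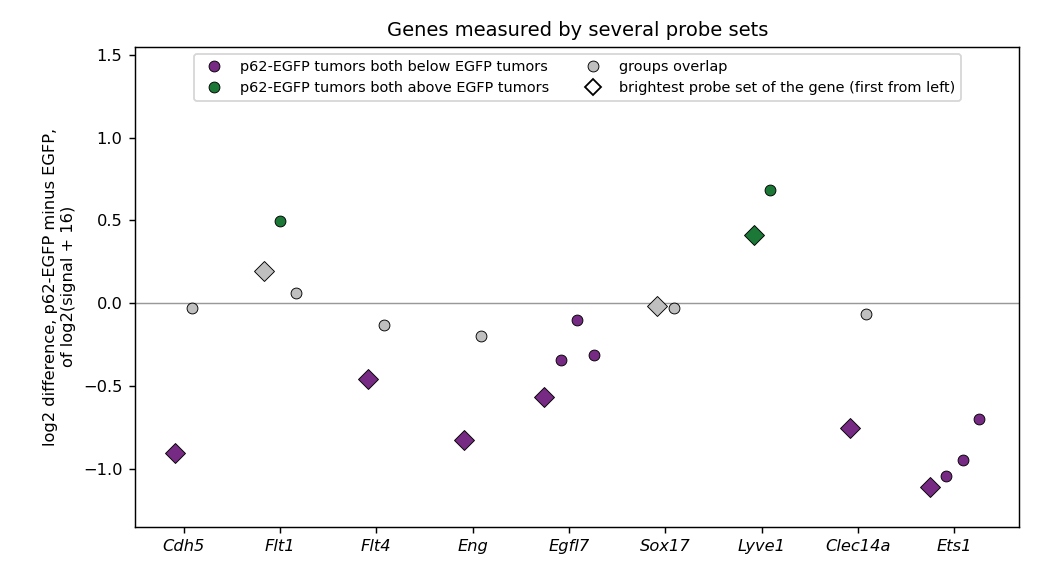
Log2 difference, p62-EGFP minus EGFP tumors, of every probe set of the 9 endothelial genes that have more than 1, each point 1 probe set and the diamond the brightest. All 4 probe sets of Egfl7 and of Ets1 lie below 0, whereas the 3 of Flt1 lie between 0.06 and 0.50.

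The tumors differed within each group as well. p62-EGFP tumor 1 was the lowest of the 4 tumors for 23 of the 33 genes, against 20.2% of all genes, and EGFP tumor 2 was the highest for 22, against 24.6% of all genes. Tumor 1 read below tumor 2 of the p62-EGFP pair for 29 of the 33 genes, where 52.1% of all genes did so. The summed signal of the 33 genes was 899.5 and 1165 in p62-EGFP tumors 1 and 2, against 1482 and 2227 in EGFP tumors 1 and 2. Of 17 genes taken as restricted to endothelium, 12 read lower in both p62-EGFP tumors (18.0% of all genes), and the median was -0.56 on the log2 scale. Of 16 known also from other cells, 7 were lower in both and 3 higher in both (18.0% and 26.8% of all genes), with a median of -0.47. Set against EGFP tumor 1 alone, the restricted genes had medians of -0.55 in p62-EGFP tumor 1 and -0.30 in tumor 2, and 14 of 17 read lower in each (47.5% and 46.1% of all genes). Against EGFP tumor 2 the medians of the restricted genes were -0.70 and -0.38, and 16 and 15 of 17 read lower (43.1% and 42.1% of all genes). The genes shared with other cells had medians of -0.40 and 0.03 against EGFP tumor 1, and 11 and 8 of 16 read lower (47.5% and 46.1% of all genes). Against EGFP tumor 2 their medians were -0.99 and -0.44, further from 0 than those of the restricted genes. Of the 16, 12 read lower than EGFP tumor 2 in each p62-EGFP tumor (43.1% and 42.1% of all genes).

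**Figure D4:**
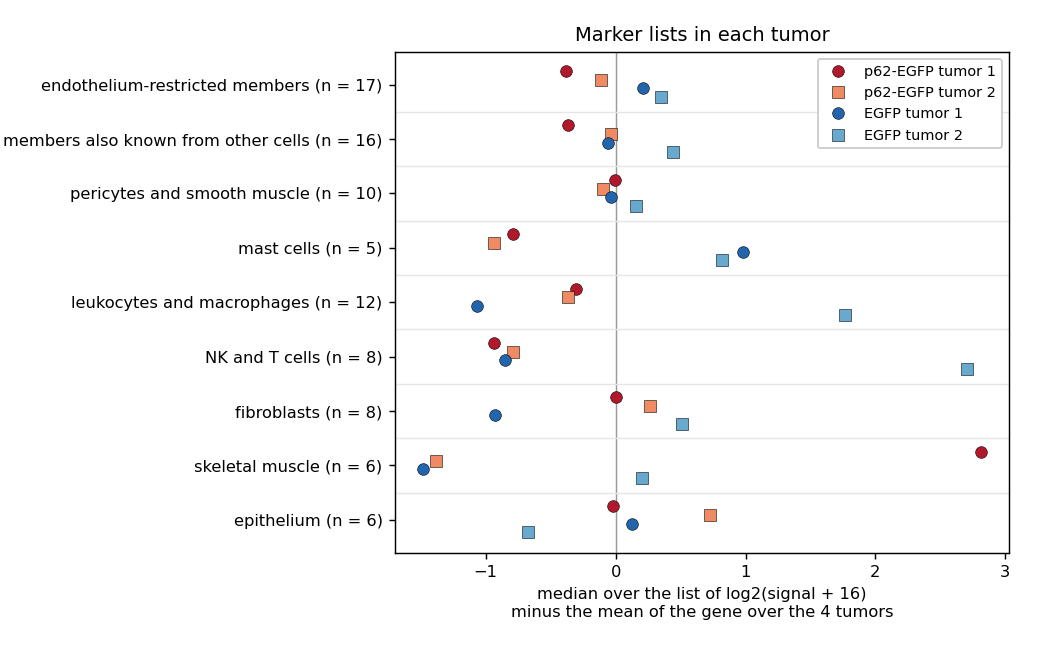
Median over each gene list of log2(signal + 16) minus the mean of the gene over the 4 tumors, 1 point per tumor, for the endothelial genes and 7 lists of other cells. For the 17 endothelium-restricted genes the p62-EGFP tumors stand at -0.38 and -0.11 and the EGFP tumors at 0.21 and 0.35; leukocyte, NK and T cell lists are highest in EGFP tumor 2 and skeletal muscle in p62-EGFP tumor 1.

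Leukocyte transcripts moved with EGFP tumor 2. The summed signal of 12 leukocyte and macrophage genes was 2349 and 2392 in the p62-EGFP tumors, against 1296 and 10435 in the EGFP tumors. Of the 12, 0 separated the groups, where 18.0% of all genes were lower and 26.8% higher in both p62-EGFP tumors. For 8 NK and T cell genes the sums were 65 and 77.6 against 71.1 and 2916, with 1 of 8 lower in both p62-EGFP tumors (18.0% of all genes). The part of these cells in Ets1, Klf2, Icam2, Pecam1 and Eng was not tested. Without EGFP tumor 2 the p62-EGFP tumors read below EGFP tumor 1 for 21 of the 33 endothelial genes (35.9% of all genes), with a median log2 difference of -0.38, and 3 passed the test: Cdh5, Aqp1 and Kdr (limma adjusted p from 0.0241 to 0.0368; 4.58% of all tested genes were called lower). Without EGFP tumor 1 they read below EGFP tumor 2 for 27 (33.1% of all genes), with a median of -0.62, and 9 passed: Ets1, Aqp1, Plvap, Eng, Kdr, Pecam1, Klf2, Esam and Ptprb (limma adjusted p up to 0.0112; 11.0% of all tested genes were called lower). Both of these fits assume that the lone EGFP tumor varies like the p62-EGFP pair. With all 4 tumors the EGFP pair varied more: over the tested probe sets the log2 difference between the 2 tumors of a pair had an SD of 0.273 in p62-EGFP and 0.604 in EGFP, so these adjusted p-values rest on the tighter pair and may be too small. Cldn5 was below the filter and untested in each, and Cdh5 was untested without EGFP tumor 1. Where tested, Cdh5, Kdr and Ptprb passed the filter through the EGFP tumor left, as their p62-EGFP means lay below it. The genes passing in these fits are therefore a description and no support for a difference.

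Skeletal muscle transcripts moved with p62-EGFP tumor 1. The sums over 6 genes were 2985 and 39.9 in the p62-EGFP tumors and 31.4 and 419.7 in the EGFP tumors. Of the 6, 0 were lower and 1 was higher in both p62-EGFP tumors (18.0% and 26.8% of all genes). Without p62-EGFP tumor 1, 19 of the 33 endothelial genes still read lower in the tumor left than in both EGFP tumors (26.7% of all genes), and the median log2 difference was -0.31. Without p62-EGFP tumor 2 the count was 24 (28.7% of all genes) and the median -0.63. In both of these fits, each with 1 p62-EGFP tumor left, no probe set of any gene passed the test. That holds for the whole array and is no result about the endothelial genes.

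Among the lists of other cells, mast cell genes also read lower in the p62-EGFP tumors. Of 5 mast cell genes, 4 separated the groups and read lower in the p62-EGFP tumors (18.0% of all genes, and 26.8% higher, as for each list here), with sums of 165.2 and 118.5 against 610.7 and 469.8 in the EGFP tumors; the part of mast cells in the endothelial values was not tested. Platelet genes, which share Vwf and Pecam1 with endothelium, had sums of 142.9 and 211.4 against 139.6 and 185.4, with 1 of 6 lower and 2 higher. Red cell genes, a sign of blood in the sample, had sums of 10 and 16.4 against 30.1 and 23.2 over 3 dim genes, with 2 lower and 1 higher. Fibroblast genes had 0 of 8 lower and 1 higher, adipocyte genes 1 of 4 lower and 2 higher, and epithelial genes 0 of 6 lower and 2 higher. None of these lists held a value of exactly 0.

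A second list of 60 vascular genes, with no overlap with the first, was read for the surrounding pathway, and 57 were on the array. In all, 18 of the 57 read lower in each p62-EGFP tumor than in each EGFP tumor and 6 were higher in both, against 18.0% and 26.8% of all genes. The median log2 difference was -0.22. Of the 37 tested, 0 passed (limma, adjusted p under 0.05), a threshold met by 0.0510% of all tested genes. At an unadjusted limma p under 0.05, 9 were lower and 1 higher, against 6.30% and 8.50% of all tested genes. Pdgfb read below the filter in both p62-EGFP tumors and passed it through the EGFP tumors. These counts are therefore a description and no support for a difference.

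Of the 26 further endothelial genes, 10 were lower in both p62-EGFP tumors and 2 higher (18.0% and 26.8% of all genes), with a median of -0.32. These genes were not divided into those restricted to endothelium and those known also from other cells. Cav1, the coat protein of caveolae, read 146.9 and 226.2 in the p62-EGFP tumors and 354.7 and 455.4 in the EGFP tumors (log2 difference -1.07, limma adjusted p = 0.221). Aplnr, the receptor for apelin, read 29.9 and 54.6 in the p62-EGFP tumors and 77.1 and 88.2 in the EGFP tumors (log2 difference -0.79, limma adjusted p = 0.294), whereas its ligand gene Apln overlapped. The ETS family gene Elk3 read 73.8 and 89.8 in the p62-EGFP tumors and 123.9 and 253.1 in the EGFP tumors, and the LIM domain gene Lmo2 read 47.3 and 38.8 against 61.6 and 107.6. For Elk3 and Lmo2 the log2 differences were -0.99 and -0.73 (limma adjusted p = 0.299 and 0.329), with EGFP tumor 2 the highest.

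Of the 22 ligands, Notch and guidance genes, 6 were lower and 3 higher in both p62-EGFP tumors (18.0% and 26.8% of all genes), with a median of -0.13. Vegfa, the ligand of Kdr and Flt1, read 67.6 and 90.7 in the p62-EGFP tumors and 102.5 and 56.3 in the EGFP tumors, and overlapped (log2 difference 0.03, limma adjusted p = 0.972); it was named after its values were seen. Pdgfb, by which endothelial cells recruit pericytes, read 19 and 30 in the p62-EGFP tumors and 50.1 and 46.2 in the EGFP tumors (log2 difference -0.68, limma adjusted p = 0.297). Nrp1, a co-receptor for VEGF, read 71.4 and 101 in the p62-EGFP tumors and 134.4 and 292.7 in the EGFP tumors (log2 difference -1.09, limma adjusted p = 0.305). Vegfc, a ligand of Flt4, read 56.9 and 40.3 in the p62-EGFP tumors and 73.7 and 67.3 in the EGFP tumors (log2 difference -0.43, limma adjusted p = 0.405). Hey1, a Notch target made in arterial endothelium and in other cells, ran the other way, at 356.4 and 237.5 in the p62-EGFP tumors and 48.5 and 59.9 in the EGFP tumors (log2 difference 2.13, limma adjusted p = 0.120).

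Of 9 basement membrane and vessel wall genes, 2 were lower and 1 higher in both p62-EGFP tumors (18.0% and 26.8% of all genes), with a median of -0.10. Both chains of the main type IV collagen were the lower ones: Col4a1 read 337 and 513.2 in the p62-EGFP tumors and 738.4 and 683.5 in the EGFP tumors (log2 difference -0.75, limma adjusted p = 0.263). Col4a2 read 149.7 and 220.1 in the p62-EGFP tumors and 249 and 283.4 in the EGFP tumors (log2 difference -0.51, limma adjusted p = 0.368). Podxl, a sialomucin of vessels and kidney podocytes, read 81.3 and 78.5 in the p62-EGFP tumors and 63.1 and 52.7 in the EGFP tumors (log2 difference 0.38, limma adjusted p = 0.400). Col18a1, the source of endostatin, read 37.2 and 74.5 in the p62-EGFP tumors and 63 and 93.1 in the EGFP tumors, and overlapped.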

How the data were processed

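RNA of 4 tumors was measured on 1 Affymetrix mouse 430A 2.0 array each, from biotin-labelled cRNA (per the labels' protocols). Deposited values are signal intensities on a linear scale, for which the submitters' processing notes name MAS5; neither version nor settings were given in the sources used here. The authors had scaled the arrays (means after trimming 2% of probe sets at each end from 149.5 to 149.6) and the deposited values were kept. No detection calls were used. Of 22690 probe sets, 64 controls were left out, and 20380 of the others had 1 gene symbol, 691 several and 1555 none. Symbols came from the array annotation, checked by Entrez identifier against the RefSeq gene table of GRCm38.p6 (20351 matched, 0 changed).

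Values were transformed as log2(signal + 16). The 13576 probe sets with a mean at or above the 40th percentile were fitted with lmFit and eBayes (trend) of limma 3.58.1 (R 4.3.3), as two-sided tests adjusted over all of them by Benjamini-Hochberg, without a replicate block. 2 residual degrees of freedom limit its precision. The members and lists were chosen with earlier results of these data known, so no p is given for a list. All members are reported. From each part of the second list the 4 genes of smallest p are named. Vegfa, Ephb4, Hey2, Efnb2, Dll4, Jag1, Notch1, Notch4 and Nr2f2 are named outside that rule. The pericyte and smooth muscle genes named are those of highest mean signal in their list. The lists of other cells covered leukocytes, NK and T cells, platelets, red cells, pericytes, fibroblasts, adipocytes, skeletal muscle, mast cells and epithelium. Promoter motifs were chosen during the analysis. Promoters and figures used Python 3.11.15, numpy 2.4.6, pandas 2.3.3 and matplotlib 3.10.9. Alternatives covered scaling, pseudocount, filter, variance model, replicate block, averaging of probe sets and leaving out each tumor.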

Additional observations from a re-analysis of the deposited data

How the results depend on the processing

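With all 4 tumors, no endothelial gene passed the test under any alternative of scaling, pseudocount, filter, variance model, block or probe set averaging (lowest limma adjusted p = 0.145, for Cldn5 with the replicate block). Few of any kind passed in these fits, from 1 of 7436 genes with averaging to 37 of 13576 probe sets with the block. Leaving out 1 tumor gave between 0 and 9 genes past the threshold. The share of all tested genes called lower moved as well, at 11.0% without EGFP tumor 1 and 4.58% without EGFP tumor 2. Without either p62-EGFP tumor no probe set of any gene passed. The range therefore goes with the calls over the whole array and is no result about the endothelial genes. The count of genes lower in both p62-EGFP tumors was 19 with all other settings that keep 33 genes, 23 with the replicate block, which counts same-numbered tumors only (24.3% of all genes, against 18.0%), and between 19 and 27 with 1 tumor left out (26.7% to 35.9% of all genes). With the filter at the 60th percentile only 2 genes were left, both of them lower. The median log2 difference was -0.84 with a pseudocount of 1, -0.26 with 64 and -1.08 over the 2 genes left by the stricter filter, and between -0.63 and -0.31 with 1 tumor left out. The count of lower genes in the second list was 7 of 17 with the stricter filter (21.9% of all genes past it), 25 with the block (24.3%), and between 23 and 32 with 1 tumor left out (26.7% to 35.9%), so the share of all genes rose as well. Same-numbered tumors deviated together only weakly (r = 0.082 over the probe sets tested, which are no independent replicates), so the numbers were not taken to pair the tumors; the replicate block called 37 probe sets in place of 12 and 0 endothelial genes. Of 232 gene values under alternatives, 212 kept direction and side of the threshold, and 12 passed it. All of these 12 came without an EGFP tumor, in fits that called more probe sets of any kind than the fit of all 4 tumors. The other 8 turned sign. Those were Apln (0.027 with quantile normalization, 0.023 with median centring) and, with 1 tumor left out, Flt1 (between -0.068 and 0.46), Tek (between -0.14 and 0.14), Cd34 (between -0.43 and 0.11), Apln (between -0.39 and 0.35) and S1pr1 (between -0.41 and 0.069). The cause was not tested. Low signal left 13 of the 33 genes below the filter, and 2 residual degrees of freedom limit the test of the others.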

Other observations

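Mural cells, which wrap the endothelial tube, were read from 10 genes of pericytes and smooth muscle. Of these, 4 were lower in both p62-EGFP tumors and 4 were higher in both (18.0% and 26.8% of all genes), with summed signals of 659 and 718.2 against 749.3 and 925.2 in the EGFP tumors. The pericyte gene Rgs5 read 137.6 and 137.5 in the p62-EGFP tumors and 319.2 and 367.1 in the EGFP tumors (log2 difference -1.22, limma adjusted p = 0.156), and Pdgfrb, the receptor for the product of Pdgfb, read 42.9 and 57.6 against 65.9 and 154.4. The contractile gene Acta2 stood the other way, at 237.5 and 310.6 in the p62-EGFP tumors and 180.7 and 173.7 in the EGFP tumors (log2 difference 0.57, limma adjusted p = 0.294).

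A pair of genes that mark the arterial and the venous side of vessels was looked at after its values were seen. Ephb4, the venous ephrin receptor, read 23.1 and 24.4 in the p62-EGFP tumors and 39.7 and 39.3 in the EGFP tumors. Hey2, an arterial Notch target, read 23.8 and 28.2 in the p62-EGFP tumors and 5.5 and 9 in the EGFP tumors. Both were below the filter and were not tested. Some other genes known from arteries or veins separated the groups and others did not. Hey1, of arterial endothelium and of other cells, read higher in both p62-EGFP tumors (log2 difference 2.13). Emcn, of capillaries and veins, read lower in both (-0.56). Nrp1 and Notch1, of arterial endothelium and of other cells, also read lower in both (-1.09 and -0.34). The groups overlapped for Efnb2 (-0.43), Dll4 (-0.22), Notch4 (-0.39), Jag1 (0.08) and Sox17 (-0.02), of arteries, and for Nr2f2 (0.09), of veins. Genes known from arteries thus read in both directions, and the genes named here are not a full list.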
